A study of Homo sapiens with 14 samples.

Results

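The BoRed-seq pulldown was compared with its control in A549 cells, an established human lung adenocarcinoma line. All 453 mature miRNAs with 10 or more counts in at least 2 of the 4 libraries were described, of 2588 listed in the count table. The series holds 14 small RNA libraries, 4 of them from this assay. In the 2 Red libraries, decapped total RNA was treated with NaBH4 while free m7GTP was present. In the 2 Ctrl libraries the NaBH4 had been quenched with acid beforehand. The RNA of every library was then held at low pH, exposed to the biotin-coupled aldehyde reactive probe ARP and bound to streptavidin beads, before NEBNext small RNA libraries were made. No genotype or drug differed between the groups, and all RNA came from 1 cell line. The labels do not say that replicates came from separate cultures, so p-values measure only the spread between these libraries, which may be technical.

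N7-methylguanosine (m7G) is a guanine with a methyl group on its N7 position, known from the cap of mRNA and from internal sites in tRNA and rRNA. Borohydride reduction makes such a base prone to loss at low pH, and the aldehyde left at the abasic site is what the probe binds. miRNAs are cut from hairpin precursors that can release a guide strand from either arm (5p or 3p) and a passenger strand from the other. Bases 2 to 8 of the mature strand, the seed, pair with target mRNAs, so miRNAs that share a seed are grouped as a family. let-7 is a tumour suppressor family, and miR-21-5p is an abundant miRNA of many carcinomas.

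The sequences on which the comparisons turned are given first, 5′ to 3′, from RefSeq on GRCh38.p14, with the seed in capitals. RefSeq held the mature sequence of 406 of the 453 miRNAs. The let-7 seed family is shown because its members share the seed and most other bases, but spanned a wide range of enrichment. They are ordered from the most to the least enriched.
let-7c-5p: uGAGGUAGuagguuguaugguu
let-7b-5p: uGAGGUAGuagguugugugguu
let-7a-5p: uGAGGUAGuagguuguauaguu
let-7e-5p: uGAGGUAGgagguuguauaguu
let-7d-5p: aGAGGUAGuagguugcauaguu
miR-4500: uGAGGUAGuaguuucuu
let-7f-5p: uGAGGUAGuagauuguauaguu
miR-98-5p: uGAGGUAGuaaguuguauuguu
let-7g-5p: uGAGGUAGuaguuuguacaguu
let-7i-5p: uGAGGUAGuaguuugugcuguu

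Members of 4 other seed families are shown for the same reason, each from the most to the least enriched. They are miR-200c-3p, miR-200b-3p and miR-429, then miR-92b-3p, miR-363-3p, miR-92a-3p, miR-25-3p and miR-32-5p, then miR-99b-5p, miR-100-5p and miR-99a-5p, and last the pair of miR-196a-5p and miR-196b-5p.
miR-200c-3p: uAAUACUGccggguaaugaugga
miR-200b-3p: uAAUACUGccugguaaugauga
miR-429: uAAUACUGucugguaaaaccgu
miR-92b-3p: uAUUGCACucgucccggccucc
miR-363-3p: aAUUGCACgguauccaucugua
miR-92a-3p: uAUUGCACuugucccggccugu
miR-25-3p: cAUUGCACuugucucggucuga
miR-32-5p: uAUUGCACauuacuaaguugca
miR-99b-5p: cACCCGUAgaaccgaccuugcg
miR-100-5p: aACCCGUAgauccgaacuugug
miR-99a-5p: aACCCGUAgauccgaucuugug
miR-196a-5p: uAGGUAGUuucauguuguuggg
miR-196b-5p: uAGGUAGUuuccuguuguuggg

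Pairs of arms are shown because the arms of a pair are named for 1 hairpin, and in these 7 hairpins 1 arm was enriched and the other depleted. The 3p arms of miR-365a and miR-365b are the same sequence.
miR-193b-5p: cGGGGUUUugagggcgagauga
miR-193b-3p: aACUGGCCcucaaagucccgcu
miR-342-5p: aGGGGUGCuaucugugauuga
miR-342-3p: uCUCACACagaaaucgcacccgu
miR-365a-5p: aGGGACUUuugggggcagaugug
miR-365a-3p: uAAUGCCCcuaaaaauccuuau
miR-365b-5p: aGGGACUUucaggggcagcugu
miR-365b-3p: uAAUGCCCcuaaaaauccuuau
miR-23a-5p: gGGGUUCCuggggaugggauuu
miR-23a-3p: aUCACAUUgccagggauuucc
miR-23b-5p: uGGGUUCCuggcaugcugauuu
miR-23b-3p: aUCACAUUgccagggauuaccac
miR-1307-5p: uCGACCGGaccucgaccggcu
miR-1307-3p: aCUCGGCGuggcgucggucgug

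A further set is shown as examples of strongly changed or abundant miRNAs described in the text. miR-663a, miR-7704, miR-3648, miR-7977 and miR-320c were enriched, whereas miR-30a-5p, miR-22-3p, miR-192-5p, miR-101-3p and miR-21-5p were depleted.
miR-663a: aGGCGGGGcgccgcgggaccgc
miR-7704: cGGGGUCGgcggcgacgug
miR-3648: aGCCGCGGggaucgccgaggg
miR-7977: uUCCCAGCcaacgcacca
miR-320c: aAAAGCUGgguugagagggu
miR-30a-5p: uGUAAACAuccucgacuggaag
miR-22-3p: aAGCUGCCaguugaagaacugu
miR-192-5p: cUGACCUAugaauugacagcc
miR-101-3p: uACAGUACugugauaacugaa
miR-21-5p: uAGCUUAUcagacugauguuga

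The Ctrl libraries held 5874405 and 4678102 miRNA counts and the Red libraries 242085 and 277498. A count of 0 allowed a share of up to 5.11e-05% in the deepest library and 0.00124% in the shallowest, from counting error alone. Of the 453 miRNAs, 191 had 10 counts in all libraries of both groups, 215 in both Ctrl but not both Red, 40 in both Red but not both Ctrl, and 7 in 1 library of each group. So most miRNAs passed through the deeper Ctrl, and 27 of them had no Red count at all. Another 813 miRNAs had counts below the filter and 1322 had none. Just inside the filter, where the second highest count was 10, stood 10 miRNAs such as miR-1247-5p, with counts of 19 and 10 in Ctrl and 3 and 7 in Red. Just outside it, at 9, stood another 10, such as miR-222-5p with 27 and 9 in Ctrl and 5 and 1 in Red. As a check of the label, miRNAs that mark blood cells, hepatocytes and pluripotent cells were searched. None of these markers passed the filter. miR-122-5p, the hepatocyte marker, had no count, and the 6 pluripotent markers summed to 3 and 1 counts in Ctrl and 1 and 16 in Red. Of 7 epithelial markers, 4 passed, and the 7 summed to 1339 and 904 counts in Ctrl and 96 and 218 in Red. The epithelial marker miR-203a-3p had no count in any library. Markers of other cell types passed the filter as well. The neural marker miR-9-5p had 4093 and 2850 counts in Ctrl and 168 and 277 in Red. The endothelial marker miR-126-3p had 1569 and 1396 in Ctrl and 21 and 55 in Red. Each exceeded the epithelial sum in both Ctrl libraries.

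The composition of the libraries was the first comparison. miR-21-5p (MIR21, chromosome 17, 59841273 to 59841294, in an exon of VMP1) took 79.0% and 80.4% of Ctrl counts but 26.9% and 26.7% of Red counts. let-7a-5p, encoded at 3 loci, went the other way, from 0.789% and 0.546% to 29.0% and 26.0%. It was thereby ranked 9 in Ctrl and 1 in Red. The let-7 guide arms together rose from 6.06% and 5.49% of counts to 51.3% and 47.6%. In every one of these shares the groups were far apart relative to their replicates. A permutation over 2 against 2 libraries cannot give a p under 0.333, so no share of a library could pass 0.05 by the exact permutation test (two-sided). A share also cannot tell fewer copies of one miRNA from more copies of the others.

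**Figure D1:**
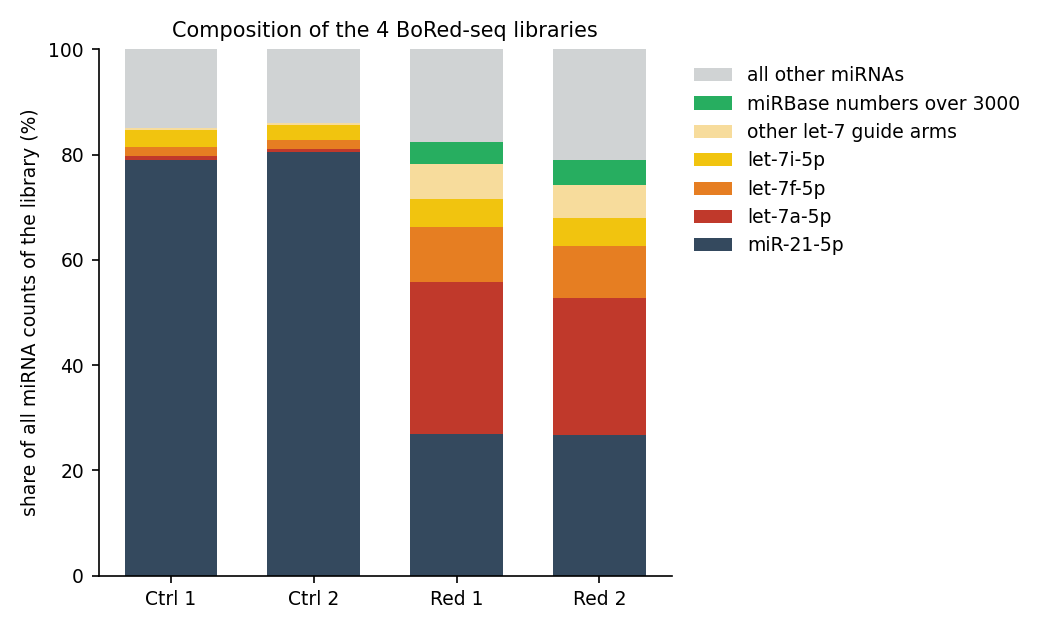
Share of all miRNA counts (%, y axis) taken by miR-21-5p, by let-7 members, by entries with miRBase numbers over 3000 and by all other miRNAs in each Ctrl and Red library. miR-21-5p filled 79.0% and 80.4% of Ctrl and 26.9% and 26.7% of Red, while let-7a-5p grew from under 1% to 29.0% and 26.0%.

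Counts were spread over more miRNAs in Red. In Ctrl, 8 and 7 miRNAs held 90% of counts, against 17 and 24 in Red, and the Shannon entropy was 1.84 and 1.75 bits against 3.70 and 3.96. This turned round once miR-21-5p was taken out of every library. Then 47 and 52 miRNAs held 90% of Ctrl counts against 26 and 35 in Red, where let-7 guide arms alone held 70.1% and 64.9%. Among the 10 most abundant miRNAs, 6 were shared by the groups, namely miR-21-5p, let-7a-5p, let-7f-5p, let-7i-5p, miR-99b-5p and miR-100-5p. Those that entered the top 10 only in Red were miR-6087, let-7b-5p, miR-92a-3p and let-7e-5p. miR-6087, an entry listed as rRNA-like, moved from rank 149 to rank 5, with 0.00468% and 0.00455% of Ctrl counts and 2.74% and 2.95% of Red counts. miR-27b-3p, miR-30a-5p, miR-7-5p and miR-192-5p left the top 10. At one depth of 242085 counts, 613 and 677 miRNAs had a count in Red, a mean of 215 more than in Ctrl. Without miR-21-5p, at a depth of 177017 counts, 600 and 614 were counted in Ctrl and 612 and 682 in Red, so the groups no longer lay apart.

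Library composition also differed by the age of the entries. miRBase numbers follow the order in which entries were registered. Entries above 3000 held 0.109% and 0.107% of Ctrl counts and 4.23% and 4.74% of Red counts. The 7 entries listed as rRNA-like, of which only miR-663a is numbered below that limit, stood at 0.0108% and 0.0146% in Ctrl and 3.31% and 3.68% in Red. Averaged over counted molecules with a RefSeq sequence, which leaves out miR-6087, G made up 23.7% and 23.6% of bases in Ctrl and 30.7% and 30.3% in Red. C fell from 14.4% and 14.3% to 8.92% and 9.59%. Both differences kept their sign without miR-21-5p, at 6.29 percentage points for G and −9.84 for C. The let-7 guide arms then held 28.8% and 28.1% of Ctrl counts and 70.1% and 64.9% of Red counts. The most abundant of them in Red, let-7a-5p, has no C, so these differences are not separate from the let-7 rise. Base content without let-7 was not tested.

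Enrichment of single miRNAs was tested with the Wald test of DESeq2 on median-of-ratios normalized counts, so each log2 value is relative to the typical miRNA. Of 400 miRNAs with an adjusted p, 129 were enriched in Red (32.2% of those tested) and 109 depleted (27.2%), together 59.5%. DESeq2 gave no adjusted p for the remaining 53. Ctrl and Red values were fully apart in 127 of the enriched and all 109 depleted miRNAs, against 369 of all 453. Both Ctrl libraries had 3 counts or fewer for 14 enriched miRNAs, and both Red libraries for 18 depleted ones. The changes were large, with 52 miRNAs enriched by a log2 over 4 and 71 depleted by more than 2. The balance of the directions depended on the scaling. With total-count factors 175 were enriched and 46 depleted, while leaving miR-21-5p out of those totals gave 101 and 167. These factors moved the values by a median of 1.12 and −0.73. Under no scaling or other setting did a miRNA called with median-of-ratios factors become called in the opposite direction. let-7i-5p, not called with them, was called enriched with total-count factors and depleted with those without miR-21-5p.

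Most entries on fixed lists of miRNAs that resemble other RNA classes were enriched, against 32.2% of all tested miRNAs. The class came from the lists, not from a sequence match, and entries without a sequence, such as miR-6087, could not be searched. Of the miRNAs past the filter, 8 shared 18 bases with an annotated RNA of another class, and 7 of these were enriched. All 7 rRNA-like entries rose, with a median log2 of 6.19 against −0.09 over all tested miRNAs. miR-663a (chromosome 20, 26208243 to 26208264, in an exon of MIR663AHG) had 3.87 and 3.35 normalized counts in Ctrl and 567 and 521 in Red, a log2 of 7.22 ± 0.45 (SE, DESeq2 adjusted p 1.27e-55). miR-6724-5p had the smallest rise of the 7, at 2.47 ± 0.43. The 3 tRNA-like entries past the filter rose as well, and miR-7977 (chromosome 3, 176515103 to 176515120, intergenic) went from 1.38 and 2.23 normalized counts to 341 and 250. Of 7 snoRNA-derived entries 6 rose, by a median log2 of 3.40 over the list, and the exception was miR-664a-3p with −1.73 ± 1.00 (SE). All 3 mitochondrial-like entries rose, miR-4485-3p the most with 6.84 ± 0.54. Some of these calls rested on 1 library. That of miR-4461 was lost without either Ctrl library (2.02 and 3.21), that of miR-3653-3p without Ctrl replicate 1 (2.65) or Red replicate 2 (2.47), and that of miR-1291 without any library but Red replicate 1 (2.11 to 2.62). miR-877-5p, a mirtron spliced out of an intron without the Drosha step, was the only one of its list past the filter and rose by 2.66 ± 0.44. The medians of these lists stayed above that of all miRNAs under each scaling. Several of these entries are low in Ctrl. miR-4454, miR-7977, miR-4485-3p and miR-4485-5p passed the filter only through Red, which fixes their direction. miR-7641, an rRNA-like entry with 4 and 10 Ctrl counts, and miR-663a did not reach 10 counts in both Ctrl libraries. Their pass therefore also rested on Red. miR-4454 had 2 and 3 Ctrl counts and 68 and 106 in Red, 263-fold higher with Ctrl set at 3 counts per library. How reads were divided between these entries and the rRNA, tRNA or snoRNA they resemble was not tested.

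miR-199, known from mesenchymal cells, was higher in Red from few counts. Strands with so few Ctrl counts passed the filter only through Red, which fixes the direction. miR-199a-5p had 2 counts in each Ctrl library and 22 and 34 in Red, 84.6-fold higher with Ctrl set at 3 counts per library. The 3p strands from the miR-199a and miR-199b hairpins have the same sequence, so their log2 values of 6.87 ± 0.65 and 6.88 ± 0.86 (SE) are 1 observation. Among other markers of mesenchymal, muscle and endothelial cells, miR-143-3p rose by 1.83 ± 0.43 and miR-1-3p by 3.38 ± 1.06, whereas miR-126-3p fell by 2.14 on the log2 scale. miR-145-5p, which shares a transcript with miR-143-3p, had at most 2 counts in any library, and 3 of 4 muscle markers had none. miR-1-3p had counts of 2 and 16 in Ctrl and 10 and 12 in Red, close to the filter.

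The let-7 guide arms were the most abundant enriched family, and 7 of 9 members rose (77.8%, against 32.2% of all tested miRNAs). With miR-4500, which has the same seed, they were tested as 1 family. Every member was compared with the others in the same libraries, so scaling cancels from the differences in log2, though not from the test. Their enrichments differed from one another (diffSpliceDGE of edgeR, adjusted p 1.02e-16). let-7c-5p rose from 141 and 123 normalized counts to 3603 and 2604. let-7f-5p rose less, from 27327 and 29545 to 92751 and 67015. let-7i-5p was the only member with a negative log2, with 51493 and 50969 in Ctrl and 47588 and 36169 in Red, which did not pass the test (adjusted p 0.371 by DESeq2). Its direction followed the scaling, with 0.80 by total-count factors and −1.05 by those without miR-21-5p, both called. let-7g-5p had 0.40, and was called as enriched with total-count factors or once Ctrl was drawn down to the depth of Red (0.85). The call of miR-98-5p was lost without either Ctrl library (log2 0.99 and 1.05) or without Red replicate 1 (0.95), and that of miR-4500 without Ctrl replicate 1 (1.73).

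Positions counted from 1 at the 5′ end of let-7a-5p separated the strongly and weakly enriched members. let-7c-5p (A19G), let-7b-5p (A17G and A19G), let-7e-5p (U9G) and let-7d-5p (U1A and U16C) all keep the GG that let-7a-5p has at bases 11 and 12. These 5 members had log2 enrichments from 3.16 to 4.55. let-7f-5p (G12A), miR-98-5p (G11A and A19U), let-7g-5p (G12U and U18C), let-7i-5p (G12U, A17G, U18C and A19U) and miR-4500 have another pair of bases there, and had −0.29 to 2.10. The total number of guanines did not order the members this way, since let-7a-5p, let-7d-5p and let-7i-5p all have 8. Among the other tested miRNAs with a sequence, 41 had GG at bases 11 and 12 and 304 did not. Of those 41, 22 were enriched and 5 depleted, with a median log2 of 1.57. They include miR-4485-3p, which passed the filter only through Red. Of the 304, 84 were enriched and 85 depleted, with a median of −0.31. Over all tested miRNAs 32.2% were enriched and 27.2% depleted. This is a description of sequences after the values were seen, with no test.

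**Figure D2:**
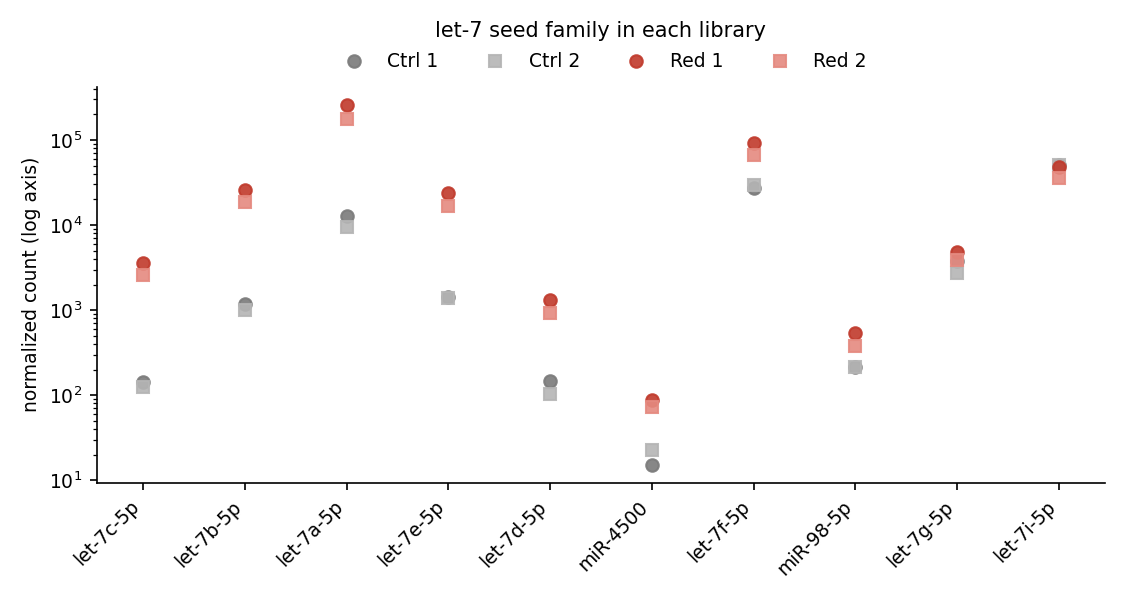
Normalized counts (log axis) of the 10 miRNAs with the let-7 seed in each Ctrl (grey) and Red (red) library, ordered from the most to the least enriched. The groups lie far apart from let-7c-5p to let-7d-5p and draw together towards let-7i-5p, which had 51493 and 50969 in Ctrl and 47588 and 36169 in Red.

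Passenger strands of let-7 were less uniform. Of 7 tested, 4 rose (57.1%, against 32.2% of all tested miRNAs) and none fell (against 27.2%). let-7b-3p went from 46.2 and 30.1 normalized counts to 815 and 551, a log2 of 4.15 ± 0.38 (SE), whereas let-7a-3p had −0.56 ± 0.44. With let-7f-1-3p these form a seed family of 3 whose members differed (adjusted p 5.67e-07, edgeR). The call of let-7f-1-3p (log2 1.57) was lost without either Ctrl library or without Red replicate 1, at 1.36, 1.66 and 1.17.

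Shared seeds did not mean shared enrichment in other families either. There were 39 families with 2 or more members, 106 miRNAs in all, and the members of 19 differed at an adjusted p under 0.05 by edgeR (48.7%). Of the 12 families with 3 or more members, 10 differed, and 3 families of any size held both enriched and depleted members. With total-count factors the miR-26 family lost its call (adjusted p 0.0807, edgeR). With each library left out in turn 13 of the 19 kept their call. The 6 others were the families of miR-15/16, miR-26, miR-148, miR-181, miR-192/215 and miR-221/222.

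The miR-200 family, which keeps the epithelial state by repressing ZEB1 and ZEB2, ranged widely (adjusted p 3.19e-06, edgeR). miR-200c-3p (chromosome 12, 6963742 to 6963764, in an intron of MIR200CHG) had 95 and 58 counts in Ctrl and 53 and 66 in Red, a log2 of 2.89 ± 0.44. miR-200b-3p (chromosome 1, 1167160 to 1167181) had 1000 and 659 in Ctrl and 35 and 106 in Red, with a log2 of −0.41 ± 0.41 that did not pass. These 2 sequences differ, from miR-200c-3p to miR-200b-3p, by G11U and G22A over the bases they share. miR-429 had 50 and 41 counts in Ctrl and 0 and 1 in Red and was not called. So the member with the middle Ctrl count had the most counts of the 3 in 1 Red library and the second most in the other.

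The AUUGCAC seed of miR-25 and miR-92, miRNAs of the growth-promoting miR-17-92 and miR-106b-25 clusters and their paralogs, split in both directions (adjusted p 1.10e-07). miR-92b-3p rose from 398 and 369 normalized counts to 3481 and 2303, a log2 of 2.91 ± 0.31. miR-92a-3p rose by 1.44 ± 0.26, miR-25-3p had 0.34 ± 0.29, and miR-32-5p fell from 107 and 127 normalized counts to 18.5 and 17.1. The call of miR-363-3p, at 2.04 ± 0.78, was lost without any 1 of Ctrl replicate 1, Ctrl replicate 2 and Red replicate 2, with 1.86, 2.04 and 0.57. In the miR-17 seed family (adjusted p 2.31e-06) miR-20b-5p rose by 4.17 ± 0.74 from 11 counts in each Ctrl library to 10 and 36 in Red. Its relative miR-106b-5p had a log2 of −2.23 ± 0.57, a call that was lost without Ctrl replicate 2 (−1.41).

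miR-99a-5p and miR-100-5p, which target the mTOR pathway, differ by U16A and both fell, by 1.76 and 1.49 on the log2 scale. With total-count factors both calls were lost, at −0.63 and −0.40. miR-99b-5p of the same seed did not fall, with 10876 and 8614 normalized counts in Ctrl and 18106 and 13146 in Red. The family differed (adjusted p 2.31e-06, edgeR), whereas the call of miR-99b-5p itself (log2 0.68, DESeq2 adjusted p 0.0398) was lost on leaving out any library, with 0.48 to 0.81, and its value turned to −0.0799 with total-count factors without miR-21-5p. A single substitution separated miR-196a-5p from miR-196b-5p, A12C, which both lie in HOX gene clusters. miR-196a-5p rose from 142 and 161 normalized counts to 1315 and 1314, and miR-196b-5p had 20.5 and 24.9 against 22.2 and 34.3, which overlap. The pair differed (adjusted p 1.98e-05, edgeR), although not once Ctrl counts were drawn down to the depth of Red (adjusted p 0.409). miR-125a-5p rose by 1.41 ± 0.27 while miR-125b-5p, the homolog of lin-4 on other chromosomes, had −0.56 ± 0.27 (family adjusted p 5.34e-05). The call of miR-125a-5p was lost with total-count factors without miR-21-5p (0.67).

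**Figure D3:**
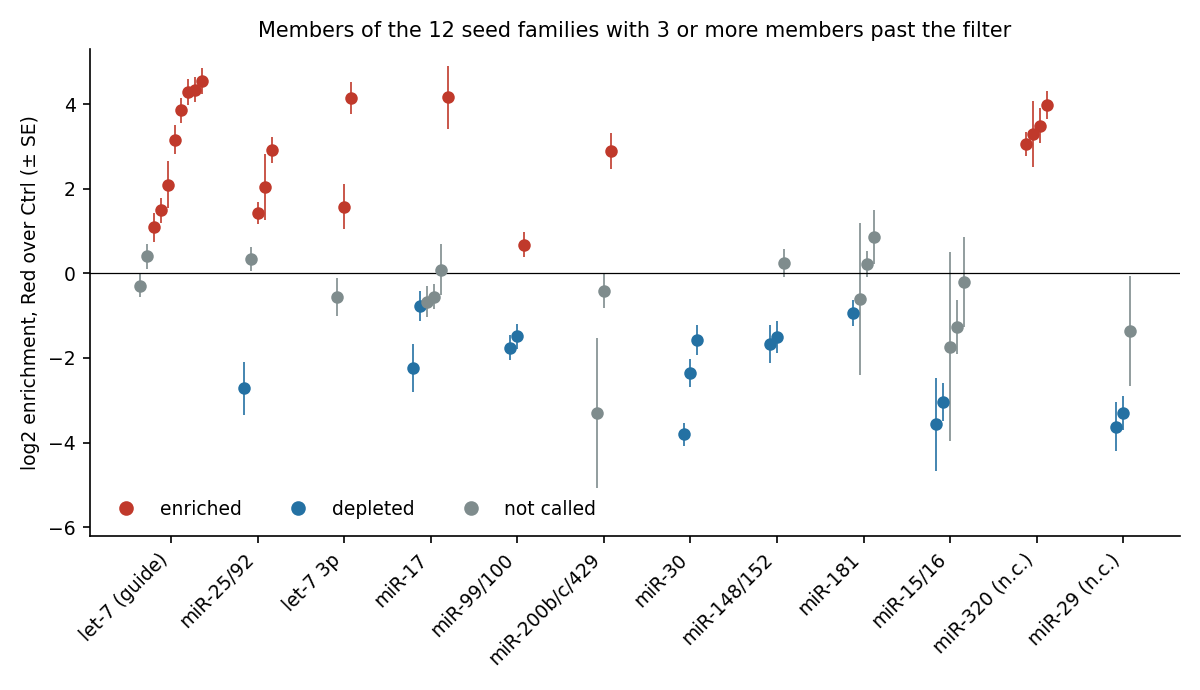
Log2 enrichment of Red over Ctrl (± SE) for the members of the 12 seed families with 3 or more members past the filter, red where enriched, blue where depleted and grey where not called. In 10 families the members differed by the test of edgeR, while those marked n.c. (miR-320 and miR-29) did not pass it, with miR-320c highest in its family at 3.97 and miR-29b-3p lowest in its own at −3.62.

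In other families all or most members were called in 1 direction, against 32.2% enriched and 27.2% depleted of all tested miRNAs. The 5 members of the miR-320 list, a family whose hairpins are made without Drosha, were all enriched, and their share of counts rose from 0.133% and 0.116% to 1.52% and 1.59%. miR-320c went from 38.5 and 41.3 normalized counts to 674 and 580, and miR-320a, the most abundant, from 1929 and 1794 to 11195 and 8680. The 4 members with the AAAGCUG seed and a sequence, miR-4429 among them, spanned 0.91 on the log2 scale and did not pass the test of difference (adjusted p 0.180, edgeR), which does not show that they were alike. All 5 miR-30 members, which act in epithelial differentiation, were depleted, and their share fell from 2.03% and 1.91% to 0.450% and 0.586%. The degree differed among the 3 members with a sequence, miR-30a-5p, miR-30c-5p and miR-30e-5p (adjusted p 6.16e-06, edgeR). miR-30a-5p fell from 22965 and 25709 normalized counts to 1815 and 1662. miR-30c-5p fell least, with −1.57 ± 0.36, and its call was lost with total-count factors. miR-29, which represses collagen genes and DNA methyltransferases, fell for miR-29a-3p and miR-29b-3p, while miR-29c-3p had 36 and 66 counts in Ctrl and 4 and 0 in Red and was not called.

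Other abundant miRNAs also fell, among them regulators with known roles in growth and differentiation. miR-22-3p (chromosome 17, 1713914 to 1713935, in an exon of MIR22HG) went from 4948 and 6301 normalized counts to 504 and 536. miR-192-5p (chromosome 11, 64891203 to 64891223), a p53 target, went from 13349 and 10598 to 1278 and 974. miR-101-3p, which represses EZH2, went from 3816 and 5007 to 307 and 536. In each of them the Red libraries lay below both Ctrl libraries by more than the spread of either group.

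Arms were paired by name, and library scaling again cancels from the log2 difference between them, though not from the test. An arm encoded at several loci can come from more than 1 precursor. let-7a-5p has 3 RefSeq loci and let-7a-3p 2, and miR-194-5p has 2 and miR-194-3p 1. Both arms of 100 hairpins passed the filter, and in 37 (37.0%) the arms differed in enrichment at an adjusted p under 0.05 by diffSpliceDGE of edgeR. The 5p arm was the more enriched in 20 and the 3p arm in 17. In 26 of the 37 the arm with fewer Ctrl counts was the more enriched, and in 11 the arm with more. Over all 100 hairpins the arm with fewer Ctrl counts was the more enriched in 53. The same Ctrl counts rank the arms and enter the enrichment, so rank and enrichment are not independent. The DESeq2 term of arm by group called 40 hairpins, 36 of them the same. With total-count factors miR-31, miR-411 and miR-500b lost their calls (adjusted p 0.0553, 0.0777 and 0.0553, edgeR). With each library left out in turn 22 of the 37 kept their call. Over all hairpins, 8 had both arms enriched, 12 both depleted and 7 had arms called in opposite directions. The 7 include miR-365a and miR-365b, whose 3p arms have the same sequence.

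miR-193b (chromosome 16, in an intron of MIR193BHG) had one of the largest splits. Its 3p arm, the guide strand that represses cyclin D1 and other growth genes, had 3655 and 10722 counts in Ctrl and 52 and 95 in Red. Its 5p arm had 323 and 274 counts in Ctrl and 313 and 420 in Red. The 5p share of the hairpin rose from 8.12% and 2.49% to 85.8% and 81.6% (adjusted p 8.74e-06, edgeR). The minor arm thereby became the major one. The neighbouring hairpin of the same cluster, miR-365a, did so too, from 27.2% and 23.7% to 92.7% and 88.5%.

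miR-342, in an intron of EVL, followed with a 5p share of 6.93% and 0.557% in Ctrl and 86.2% and 82.8% in Red. These are few molecules, with 16 and 2 counts of the 5p arm in Ctrl and 25 and 24 in Red. For miR-23a (chromosome 19, in an exon of MIR23AHG) and miR-23b (chromosome 9, in an intron of AOPEP), paralogous hairpins whose 3p arm is the guide, the 5p share rose from under 2% to between 14.5% and 33.9%. In their clusters miR-27a-3p, miR-27b-3p and miR-24-3p fell together with the 3p arms of miR-23, and the 5p arms of miR-23 were the only enriched members. miR-365b rose from 0.430% and 0.409% to 14.3% and 19.0% in its 5p share. The 3p arms of miR-365a and miR-365b have the same sequence and nearly the same counts in the table, so their depletion is 1 observation. The 5p shares of both hairpins are thus set against the same 3p counts, which cannot be divided between them.

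The opposite split was that of miR-1307, in an exon of ATP5MK, whose 3p arm was enriched with 5272 and 1993 counts in Ctrl and 1067 and 1224 in Red. Its 5p arm had 124 and 105 counts in Ctrl and 0 and 5 in Red. The arm difference of −3.99 on the log2 scale lost its call without Red replicate 1 (adjusted p 0.0932, edgeR). For miR-30a the 3p arm did not follow the depleted guide. It had a log2 of 0.55, and the 5p share of the hairpin fell from 97.0% and 97.5% to 60.9% and 66.4%. miR-30e and miR-425 showed the same pattern, with 5p shares from 85.8% and 87.7% to 39.4% and 58.9%, and from 94.8% and 95.5% to 50.0% and 55.6%. With total-count factors miR-342-3p and miR-1307-5p lost their calls (−1.71 and −1.22). The calls of 4 arms in the opposite pairs depended on 1 library. They were miR-342-3p without Ctrl replicate 2 (−2.19), miR-193b-3p without Red replicate 1 (−3.27), miR-365b-5p without Ctrl replicate 1 or Red replicate 2 (3.03 and 2.62), and miR-1307-5p without either Ctrl library or Red replicate 1 (−2.69, −2.43 and −1.44).

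**Figure D4:**
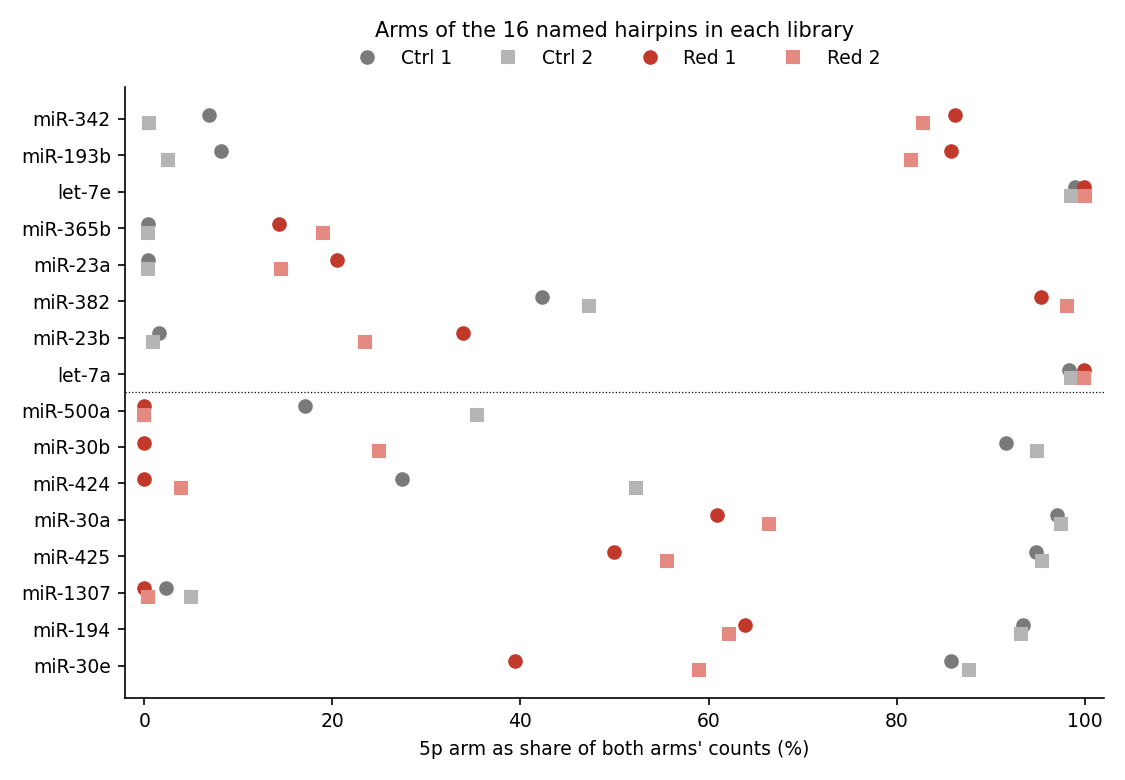
Share of the 5p arm among the counts of both arms (%, x axis) for 16 hairpins in each Ctrl (grey) and Red (red) library. The 8 above the dotted line had the more enriched 5p arm, such as miR-193b at 8.12% and 2.49% in Ctrl and 85.8% and 81.6% in Red, and the 8 below it the more enriched 3p arm.

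Enriched miRNAs had more guanines than the others on the median, though not in every case. Of the 355 tested miRNAs with a RefSeq sequence, the enriched had a median of 8 guanines (n = 114), the depleted 5 (n = 90) and those not called 5 (n = 151). With 10 or more guanines, 32 of 37 were enriched and 1 depleted, with a median log2 of 3.47. Among them was miR-658, with 0 counts in both Ctrl libraries. It passed the filter only through Red, which fixes its direction. With 4 or 5 guanines, 23 of 113 were enriched and 41 depleted. The enriched share did not rise below 8 guanines, with 23.2% at 0 to 3, 20.4% at 4 or 5 and 19.8% at 6 or 7. Across the 355 miRNAs the log2 enrichment had a Pearson's r of 0.373 and a Spearman's rho of 0.365 with the number of guanines, of −0.271 and −0.330 with adenines, of −0.209 and −0.168 with uracils and of −0.0825 and −0.0654 with cytosines. These are descriptions across miRNAs that share libraries and are not independent replicates. Tallies by sequence also include miRNAs that passed the filter only through Red, whose direction the filter fixed. The tallies were not repeated without them.

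**Figure D5:**
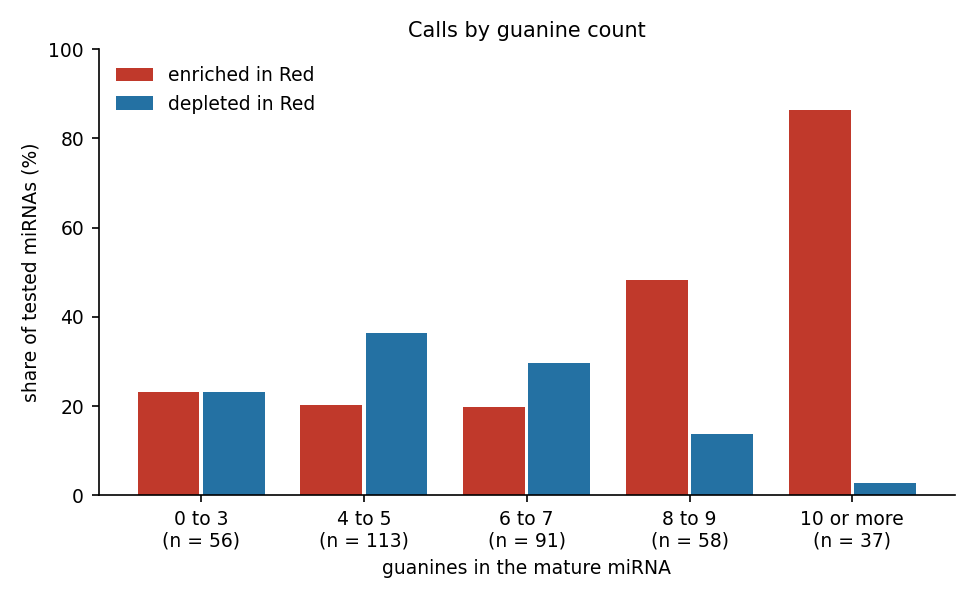
Share of tested miRNAs (%, y axis) enriched (red) or depleted (blue) in Red, by the number of guanines in the mature sequence (x axis, n tested below each class). The enriched share was 86.5% with 10 or more guanines and 20.4% with 4 or 5. Entries that passed the filter only through Red are included.

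The same order was seen among early entries. Within let-7 and miRNAs numbered up to 500, 25 of 48 with 8 or more guanines were enriched and 8 depleted, against 17 and 48 of 124 with 5 or fewer (r = 0.325 and rho = 0.311 over 235 miRNAs). Among those of 21 to 23 bases with a mean of at least 100 normalized counts, 12 of 24 against 6 of 52 were enriched. Length moved with enrichment as well. Of 30 tested miRNAs with 17 to 20 bases 25 were enriched, of which class 18 are numbered above 3000, against 89 of 325 longer ones. miR-4426 and miR-4454 of the short class passed the filter only through Red, which fixes their direction. Guanines were more frequent in enriched than in depleted miRNAs at most positions. The gap was widest at base 4, with G in 47.4% of enriched and 18.9% of depleted miRNAs. At bases 11 and 12 the shares were 42.1% and 44.7% against 21.1% and 23.3%. Precursor hairpins with a G-quadruplex motif, 4 runs of GG or longer with loops of 1 to 7 bases on the hairpin strand, belonged to 23.7% of all tested miRNAs. The shares were 42.1% of enriched, 14.4% of depleted and 15.2% of uncalled miRNAs. The enriched with the motif include miR-658, which passed the filter only through Red.

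Arms of 1 hairpin and members of 1 seed family were also compared by their guanines. In all 7 hairpins with opposite calls the enriched arm had more guanines than the depleted one, for example 11 against 4 in miR-193b and miR-23a, 8 against 3 in miR-342 and 10 against 6 in miR-1307. Among the 7, miR-365a and miR-365b share their 3p sequence. Of the 33 hairpins whose arms differed and that have both sequences, the arm with more guanines was the more enriched in 24, the arm with fewer in 7, and 2 had equal numbers. Over all 87 hairpins with sequences the numbers were 46, 26 and 15. Of the 19 seed families whose members differed, the highest member had more guanines than the lowest in 9, fewer in 3 and as many in 7. Over all 39 families the numbers were 13, 9 and 17. miR-30 was an exception, where miR-30c-5p has 2 guanines and was depleted less than miR-30a-5p, which has 5. miR-196a-5p and miR-196b-5p both have 8.

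Genomic clusters, whose miRNAs are cut from 1 transcript, did not move as units. In the miR-99b, let-7e and miR-125a cluster, in an intron of SPACA6, 4 of 6 strands rose and none fell. Over all tested miRNAs 32.2% rose and 27.2% fell. Besides miR-99b-5p, miR-125a-3p lost its call without Ctrl replicate 1 (1.79) or Red replicate 1 (1.60), while let-7e-3p, with 53 counts in each Ctrl library and 2 and 1 in Red, was not called. The cluster of miR-99a and let-7c is its paralog, and there let-7c-5p rose whereas miR-99a-5p and miR-125b-2-3p fell, the last a call that was lost on leaving out any library (−2.02 to −1.86). The large imprinted DLK1-DIO3 cluster on chromosome 14 had 47 strands past the filter and 40 tested, of which 10 rose, 4 fell and 26 were not called. These are 25% and 10% of the tested strands, both below the 32.2% and 27.2% over all tested miRNAs. miR-382-5p, in an exon of MEG9, rose from 19.1 and 22.3 normalized counts to 537 and 751, while miR-381-3p had 5553 and 5477 counts in Ctrl and 63 and 233 in Red. The Red libraries themselves differed here, with 0.343% and 0.684% of counts in the cluster, against 0.234% and 0.249% in Ctrl.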

How the data were processed

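The authors deposited raw counts per mature miRNA, as whole numbers, for 2 Red and 2 Ctrl libraries. Per the study's methods, reads were trimmed with Trimmomatic, aligned to GRCh38/hg38 with STAR allowing 1 mismatch and up to 10 loci, and counted with featureCounts. The submitters' processing notes name Bowtie2 instead, and no versions are given in the sources used here. Reads of several loci may be counted more than once, and 59 entries had counts that were multiples of a whole number above 1.

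From these counts, miRNAs with 10 or more in at least 2 libraries were kept. Enrichment was tested with DESeq2 1.42.0 in R 4.3.3 (median-of-ratios factors, two-sided Wald test, no shrinkage, Benjamini-Hochberg adjusted, calls at an adjusted p under 0.05, no covariate). Differences between arms and between seed family members were tested with diffSpliceDGE of edgeR 4.0.16. Both were tested on simulated data. DESeq2 recovered 54% of 200 miRNAs changed by a log2 of 2 among 453, with 5 false calls. The arm test recovered 77.8% of 36 hairpins among 89 changed by a log2 of 3, with 2 false calls, and the family test 83.3% of 12 among 32, with 1 false call. Shares were compared by exact permutation in scipy 1.17.1. Normalized counts are counts divided by the size factor. Fold changes against a group with 3 counts or fewer in each library were computed with that group set at 3 counts per library. They do not exceed the observed ratio, but they are not confidence limits where counts were above 0. Counting error of the other group is not included. Each SE comes from the DESeq2 fit and covers the spread between libraries. The limits for counts of 0 cover counting error only. No molecular identifiers were counted. Between replicates of a group, chi-square divided by its degrees of freedom was 56.5 in Ctrl and 10.4 in Red, so none was 1 library deposited again.

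Named are the miRNAs with the largest and smallest log2 values among called ones with a mean of at least 100 normalized counts and no overlap, those with the largest shares, the 8 hairpins with the largest arm difference in each direction, families that differ with 3 or more members, those at the filter, and members of fixed lists. miR-196, miR-125, miR-199, miR-1244, miR-4426, miR-941 and miR-500b-5p and the bases 11 and 12 of let-7 were chosen after their values were seen. The members and lists were chosen with earlier results of these data known. A G-quadruplex motif was 4 runs of 2 or more G with loops of 1 to 7 bases, on the hairpin's strand. Alternatives were other factors, filters, tools, depths, counts divided for several loci, a replicate block and each library left out. The immunoprecipitation libraries of the series were not used here.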

Additional observations from a re-analysis of the deposited data

How the results depend on the processing

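No miRNA called in the main test was called in the opposite direction under any alternative. With 10 counts required in every library, 71 miRNAs were enriched and 71 depleted, and arms differed in favour of 5p in 11 and of 3p in 6 hairpins. Depleted miRNAs numbered 61 with Ctrl thinned to the Red depth, 167 with edgeR's quasi-likelihood test, 46 with total-count factors and 167 with total-count factors without miR-21-5p. Leaving out 1 library gave 97 to 115 enriched and 62 to 86 depleted miRNAs, 16 to 21 hairpins in favour of 5p and 6 to 14 in favour of 3p. The lowest depleted count came without Ctrl replicate 2, and the lowest 3p count without Red replicate 1. With total-count factors the log2 values of miR-7-5p, miR-20a-5p, miR-181a-5p and miR-27b-5p turned to 0.22, 0.40, 0.18 and 0.18, none of them called, and without miR-21-5p in the totals that of miR-99b-5p turned to −0.0799. Without miR-21-5p, Red minus Ctrl turned to 16.6 percentage points for the 10 most abundant entries, 9.86 for 5p arms, −16.9 for 3p arms, −0.520 for numbers above 500 and up to 1000, −0.492 for the DLK1-DIO3 cluster, −19 for miRNAs that hold 90% of counts and −1.17 bits for entropy. The cause was not tested. The replicate block gave 119 enriched and 98 depleted miRNAs, 22 and 16 hairpins and 20 families. Same-numbered deviations correlated at 0.110 and the labels do not say what a number marks, so pairing is not established. Dividing counts of 20 entries with several loci, chosen after seeing the data, gave 127 and 110. Red was far shallower than Ctrl, so depletion to 0 was seen only as a lower bound.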

Other observations

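The 2 largest log2 values belonged to entries with no Ctrl count whose Red counts came in steps. Both passed the filter only through Red, which fixes their direction. miR-1244, encoded at 3 RefSeq loci, had 84 and 96 counts in Red, all multiples of 12, 281-fold higher with Ctrl set at 3 counts per library. miR-4426 had 28 and 42, multiples of 14, 106-fold higher by the same rule. These folds take the counts as deposited and would be lower if a step stood for a single read. miR-941, with 5 loci and counts in multiples of 5 from 2300 and 1210 in Ctrl to 255 and 235 in Red, was not called. miR-500a-5p and miR-500b-5p had the same counts in every library, 110 and 183 in Ctrl and 0 in both Red libraries, so their depletion of at least 5.34-fold is 1 observation. What gave rise to the steps and the shared counts was not tested.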
